A study of Rattus norvegicus with 10 samples.

Results

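The genes examined were Tnnt1, Rgs16, Tcf7l2, Lef1 and Prkcd, 5 genes that are used as markers of the thalamus, the relay centre that lies directly above the hypothalamus. They were taken as all probe sets that the annotation of the Affymetrix rat genome array assigns to 1 of these genes alone, which gave 10 of the 31042 non-control probe sets and 5 of the 14217 genes named alone by a probe set. Tnnt1 was picked on its diet difference in these same rats and the other genes were chosen around it, so the diet contrast is given for them as a description. The samples were hypothalamus from 10 male Wistar rats, 5 per group, placed on the study at 3 weeks of age and acclimatized on powdered feed, and 4 weeks old at dissection. The C group then ate solid chow and the P group went on eating powdered feed for 8 days. Housing was the same for both groups and gave little to gnaw on besides the feed, and the study asked how mastication acts on hypothalamic transcripts. The question here was whether the thalamic markers varied together from rat to rat, which tissue of the neighbouring thalamus in a dissected block would give.

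Thalamic relay neurons are glutamatergic cells that pass sensory and motor signals to the cortex. Tcf7l2 and Lef1 encode nuclear partners of beta-catenin in Wnt signalling, and Tcf7l2 is known for its strong and lasting transcription in the thalamus and habenula. Tnnt1 encodes the slow skeletal muscle troponin T and is also transcribed in thalamic neurons, Prkcd encodes protein kinase C delta, and Rgs16 encodes a protein that speeds up GTP hydrolysis by G protein alpha subunits. Rgs16 is also known from the suprachiasmatic nucleus, which belongs to the hypothalamus.

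The start regions of the genes whose probe sets differed between rats are shown first, because the data turn on how these genes vary. They are RefSeq sequences on GRCr8, from 250 bases before to 50 bases after the start that the table takes. Capitals mark TATAAA, the TATA box consensus, and CTTTG or its reverse complement CAAAG, the core of the site bound by Tcf7l2 and Lef1, searched on both strands. The Tnnt1 window is chr1:78348785-78349084 (+), the Rgs16 window chr13:68437870-68438169 (+) and the Tcf7l2 window chr1:264791085-264791384 (+).
Tnnt1: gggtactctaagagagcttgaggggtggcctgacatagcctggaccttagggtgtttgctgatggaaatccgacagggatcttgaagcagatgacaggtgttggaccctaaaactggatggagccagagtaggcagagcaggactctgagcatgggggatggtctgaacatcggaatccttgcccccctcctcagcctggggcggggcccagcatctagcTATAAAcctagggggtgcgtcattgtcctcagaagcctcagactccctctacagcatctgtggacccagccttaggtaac
Rgs16: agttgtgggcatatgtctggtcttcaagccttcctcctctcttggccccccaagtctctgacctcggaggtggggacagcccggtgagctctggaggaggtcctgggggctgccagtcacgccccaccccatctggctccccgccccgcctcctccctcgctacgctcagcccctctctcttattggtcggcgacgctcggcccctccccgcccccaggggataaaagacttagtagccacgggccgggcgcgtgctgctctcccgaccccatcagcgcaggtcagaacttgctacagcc
Tcf7l2: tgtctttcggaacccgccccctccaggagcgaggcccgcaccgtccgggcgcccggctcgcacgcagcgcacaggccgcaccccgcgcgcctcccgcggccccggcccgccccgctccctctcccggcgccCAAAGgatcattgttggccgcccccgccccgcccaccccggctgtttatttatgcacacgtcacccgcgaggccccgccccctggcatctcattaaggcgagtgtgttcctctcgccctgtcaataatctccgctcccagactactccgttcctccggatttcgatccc
The Rgs16 window lies inside the annotated span of that gene (68421480 to 68443312). TATAAA occurred once in the Tnnt1 window, starting 30 bases upstream of the start, and 14.2% of the 33469 windows of this length held it. The CTTTG core was not among the letters of the Tnnt1 and Rgs16 windows and occurred once in that of Tcf7l2, and 53.8% of all windows held it. The GC content was 56.0% for Tnnt1, 66.3% for Rgs16 and 70.3% for Tcf7l2, and the median over all windows was 51.7%.

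Values were log2 levels made by the authors with a factor-analysis summary of the probes. Such a summary keeps what the probes of a set share and leaves a set nearly constant where they share little, so a flat value is neither a measure of absence nor of a steady transcript. A probe set was called flat at an SD below 0.001 over the 10 rats and varying at an SD above 0.1. On that scale 92.6% of the probe sets were flat and 4.48% varied. Over all probe sets, any 2 rats correlated at 0.997 to 0.999, and array medians lay between 7.37 and 7.38. Of 20 listed genes of hypothalamic neurons 16 were on the array. Of these 8 varied, among them Pmch, from which melanin-concentrating hormone is made, at 12.44 to 13.15 and Oxt, the oxytocin precursor, at 10.12 to 10.74. Flat sets alone were found for 6, Pomc and Ghrh among them. Chow 1 stood apart in markers of cortex and hippocampus and was the highest of several high rats in leptomeningeal markers. The mean deviation of 6 varying cortex and hippocampus genes reached 0.65 in Chow 1, against -0.17 to -0.01 elsewhere. That of 19 leptomeningeal genes was 0.80 in Chow 1, 0.65 in Chow 4, 0.41 in Powder 3 and 0.26 in Powder 2, and -0.66 to -0.20 in the other rats. In bulk tissue, fewer cells of a type and less RNA per cell cannot be told apart.

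Tnnt1 varied most of the members. Its probe set (1370412_at) read 6.71, 6.53, 6.84, 6.74 and 6.87 in Chow 1 to Chow 5. It read 7.67, 7.60, 6.77, 6.37 and 7.38 in Powder 1 to Powder 5. Powder 1, Powder 2 and Powder 5 lay above all C rats, while Powder 3 lay within the C range and Powder 4 below it, so the groups overlapped. The levels fell into 7 rats up to 6.87 and 3 rats from 7.38 upwards, with a gap of 0.515 between them, and the next largest gap was 0.212. The highest rat was 2.45-fold above the lowest, and 93 of all probe sets had a larger SD. C rats averaged 6.74 ± 0.13 and P rats 7.16 ± 0.56 (SD, n = 5 each), a difference of C minus P of -0.42 with an SE of 0.25. Rank products, the method of the study, placed Tnnt1 among the 254 probe sets called lower in C (0.818% of those tested), with an estimated share of false positives of 0 because no permuted product was as small. Since Tnnt1 was chosen by this contrast, nothing further is read from the call.

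Rgs16 had a narrower spread and another order of rats. Its probe set (1373777_at) read 8.48, 8.16, 8.28, 8.20 and 8.40 in Chow 1 to Chow 5. It read 8.25, 8.18, 8.27, 8.11 and 8.26 in Powder 1 to Powder 5. Chow 1 and Chow 5 were the highest rats, and the other 3 C rats lay within or next to the P range. C rats averaged 8.30 ± 0.13 and P rats 8.21 ± 0.07 (SD, n = 5 each), a C minus P difference of 0.09 with an SE of 0.07. Rank products placed it among the 292 probe sets called higher in C (0.941% of those tested) at an estimated share of false positives of 0.0465, the direction opposite to that of Tnnt1. The call was lost when any of Chow 1, Chow 3, Chow 5, Powder 2 or Powder 4 was left out (0.218, 0.156, 0.200, 0.0753 and 0.132). With limma, 0 probe sets were called for diet over the whole array (0%), 1100 had an unadjusted p under 0.05, and the adjusted p of Tnnt1 and Rgs16 was 0.9995.

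**Figure D1:**
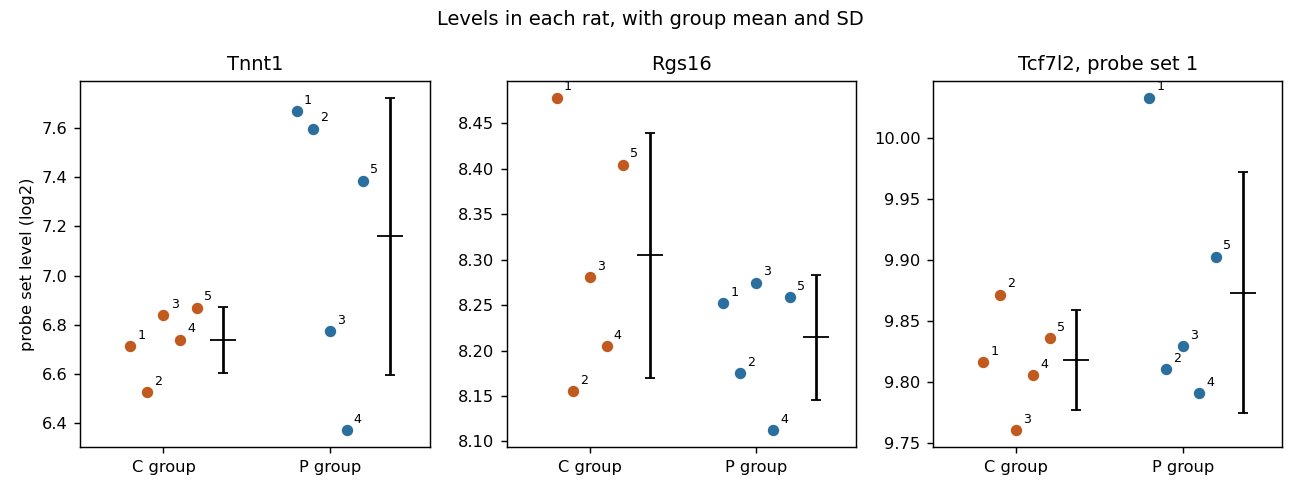
Log2 levels of the Tnnt1, Rgs16 and first Tcf7l2 probe sets (vertical axes, each with its own range) in 5 C and 5 P rats. Points are rats with their replicate number, and bars give the group mean and SD. Powder 1, 2 and 5 stand above the C rats for Tnnt1, Chow 1 and 5 are the highest for Rgs16, and Powder 1 is the highest for Tcf7l2.

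Tcf7l2 was represented by 5 probe sets, of which 4 were flat. The first set (1377156_at) had an SD of 0.0771, between flat and varying. It read 9.82, 9.87, 9.76, 9.81 and 9.84 in Chow 1 to Chow 5 and 10.03, 9.81, 9.83, 9.79 and 9.90 in Powder 1 to Powder 5. Powder 1 stood highest and Powder 5 followed, and the remaining rats overlapped between groups. C rats averaged 9.82 ± 0.04 and P rats 9.87 ± 0.10 (SD, n = 5 each), and rank products did not call the C minus P difference of -0.06 (SE 0.05; estimated share of false positives 0.135). The 4 flat sets (1378048_at, 1379815_at, 1392592_at and 1394497_at) held at 7.43, 7.37, 7.38 and 6.48 in every rat.

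Lef1 and Prkcd were flat in all their probe sets. The Lef1 sets read 6.88 (1370138_at) and 8.26 (1383785_at) in each of the 10 rats, and the Prkcd set (1387114_at) read 7.97. Over the 7 flat member sets the range across rats was 0.00042 to 0.00107 and the C minus P difference lay between -0.0003 and 0.00016, and rank products called 0 of them. Over the whole array 92.6% of the probe sets were flat as well.

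Common variation of the members that differed between rats was not shown, and 10 rats leave each correlation imprecise. Tnnt1 and Rgs16 correlated at r = 0.03 over the 10 rats (permutation p = 0.945) with a Spearman rho of 0.24 (permutation p = 0.514). Leaving out Powder 1 and Powder 2, the rats farthest from the Tnnt1 median, gave r = 0.35 (exact permutation p = 0.399), and taking deviations from the diet means gave r = 0.30 (permutation p = 0.239). Among the 7 rats below the Tnnt1 gap the correlation was 0.68 (exact permutation p = 0.0913). The 3 rats with high Tnnt1 had Rgs16 at 8.18 to 8.26, where the 10 rats ranged from 8.11 to 8.48.

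Tnnt1 and the first Tcf7l2 set correlated at r = 0.60 (permutation p = 0.0581) with a rho of 0.43 (permutation p = 0.216). Without Powder 1 and Powder 2 r was 0.51 (exact permutation p = 0.191), and as deviations from the diet means it was 0.51 (permutation p = 0.348). The value moved with single rats, to 0.27 without Powder 1 (exact permutation p = 0.485) and to 0.81 without Powder 2 (exact permutation p = 0.012), and among the 7 rats below the Tnnt1 gap r was -0.14 (exact permutation p = 0.756). Powder 1 was the highest rat in both, whereas Powder 2, the second highest in Tnnt1, had Tcf7l2 at 9.81, within the C range. Rgs16 and the first Tcf7l2 set correlated at r = -0.01 (permutation p = 0.971) with a rho of 0.08 (permutation p = 0.838), and r was 0.23 without Chow 1 and Chow 5. These were 3 member pairs. In limma fits of every probe set on 1 member level with diet as a term, the adjusted p was 0.825 for Rgs16 on Tnnt1, 0.684 for Tcf7l2 on Tnnt1 and 0.908 for the pair of Rgs16 and Tcf7l2. Over the whole array these fits called 0 of 31041 probe sets (0%) with the Tnnt1, the Rgs16 or the Tcf7l2 level, against 2366, 2681 and 2329 with an unadjusted p under 0.05.

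**Figure D2:**
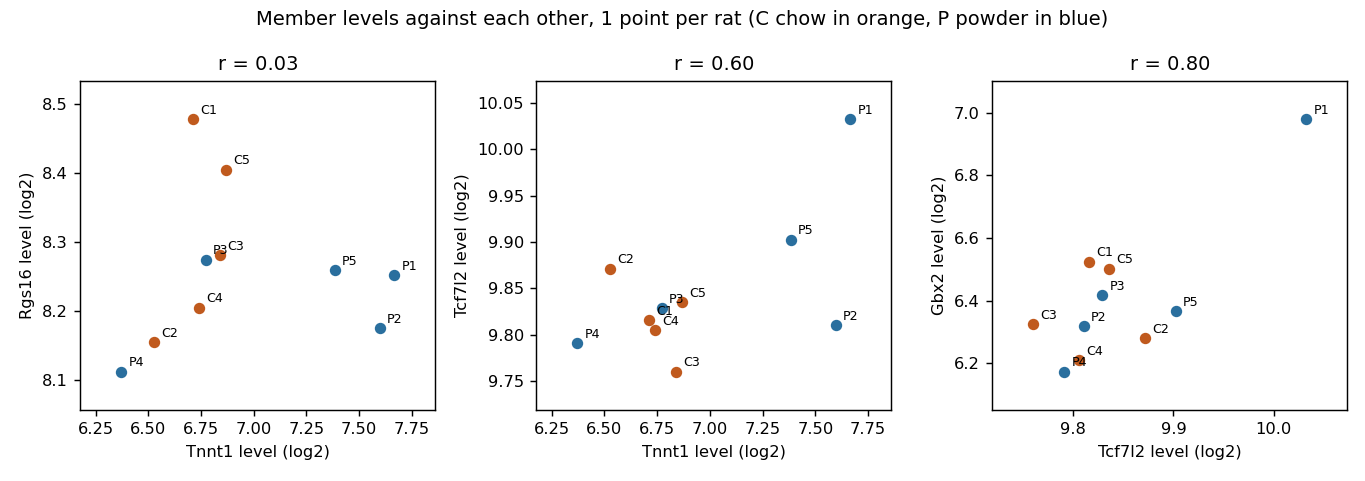
Log2 levels plotted against each other with 1 point per rat (C orange, P blue) for Tnnt1 and Rgs16, Tnnt1 and the first Tcf7l2 set, and that set and Gbx2. The correlations are 0.03, 0.60 and 0.80, and in the last 2 panels Powder 1 stands at the upper right, apart from the other 9 rats.

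Of the flat sets, 2 had a correlation with Tnnt1 within their minute range that passed the unadjusted permutation threshold. Against the 9 other member sets r ran from -0.58 to 0.87, and 2 of the 9 had an unadjusted permutation p under 0.05. Both were flat Tcf7l2 sets, 1392592_at with r = 0.87 (permutation p = 0.0027, rho 0.66) and 1378048_at with r = 0.67 (permutation p = 0.0181, rho 0.60). In the limma fit with diet as a term 1 of the 9, 1392592_at, had an unadjusted p under 0.05 (0.0047), as had 7.62% of all probe sets, and the adjusted p of these 2 sets was 0.644 and 0.661. The set 1378048_at also followed the first Tcf7l2 set, at r = 0.93 (permutation p = 0.00194, rho 0.62), 0.71 without Powder 1 and 0.50 without the 2 rats farthest from the median. The other 3 flat Tcf7l2 sets had r of 0.15, 0.64 and 0.38 with the first set, and 0.37, 0.19 and -0.23 without Powder 1. The levels of 1378048_at differed by 0.00054 between the highest and the lowest rat, and those of 1392592_at by 0.00092. The Lef1 and Prkcd sets had r of -0.58 to -0.14 with Tnnt1.

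The wider list of thalamic genes was mixed when taken gene by gene. Of 35 listed genes 32 were on the array, 8 varied, 18 had flat sets alone, and the rest, Tcf7l2 among them, lay between. Rank products called 1 listed gene higher in C (Rgs16) and 3 lower (Tnnt1, Nefm and Scn4b), where 0.941% and 0.818% of all probe sets were called. Tnnt1 is on this list and was picked on this contrast. The median difference was 0.00 over the list and over all probe sets alike. Flat sets make up most of both, which places both medians near 0 in advance, so nothing is read from them. The 7 varying genes besides Tnnt1 had r with Tnnt1 of 0.03 to 0.58 with a median of 0.10, and 0 of 7 had a permutation p under 0.05. Diet-adjusted limma gave them an adjusted p of 0.664 or more. The mean deviation of the 6 varying thalamic genes that are not members was 0.087 in Powder 1, 0.039 in Powder 2 and 0.087 in Powder 5. These are the rats with high Tnnt1. It was 0.054 in Chow 1, where Tnnt1 was not high, and -0.097 to -0.012 in the other rats. The relation of this mean to Tnnt1 was not tested.

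Gbx2, a homeodomain factor that specifies the thalamus, was the closest of them to Tnnt1 (r = 0.58, permutation p = 0.0669, rho 0.54). It read 6.52, 6.28, 6.32, 6.21 and 6.50 in Chow 1 to Chow 5 and 6.98, 6.32, 6.42, 6.17 and 6.37 in Powder 1 to Powder 5. Powder 1 stood above the other 9 rats, and without it r with Tnnt1 was 0.22. Gbx2 correlated with the first Tcf7l2 set at r = 0.80 (permutation p = 0.0282, rho 0.58, limma adjusted p = 0.653), and at 0.25 without Powder 1 and Powder 5. Powder 1 was thus the highest rat in Tnnt1, Tcf7l2 and Gbx2, while Powder 2 was high in Tnnt1 but not in the other 2.

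Lhx9, a LIM homeodomain factor, was highest in Chow 1 (7.34) and next in Powder 1 (7.18), with the other rats at 6.75 to 6.98. Ptpn3, a protein tyrosine phosphatase, was likewise highest in Chow 1 at 7.50, with the other rats at 7.04 to 7.22. In Chow 1 Tnnt1 was 6.71, within the range of the C group, and Rgs16 was at its highest. Nefm, the medium neurofilament subunit, and Scn4b, a beta subunit of voltage-gated sodium channels, shared their lowest rat, Chow 5, and their highest, Powder 5 (10.17 and 10.69 for Nefm, 7.76 and 8.46 for Scn4b). Their r with Tnnt1 was 0.15 and 0.05, and with Rgs16 -0.62 and -0.67. Cbln1, a secreted organizer of synapses, had r = 0.04 with Tnnt1. Ntng1, an axon guidance protein gene that lay between flat and varying, had r = 0.69 with Tnnt1 over levels of 8.24 to 8.32. It was highest in the rats with high Tnnt1, at 8.312 in Powder 1, 8.323 in Powder 2 and 8.314 in Powder 5. The other rats read 8.241 to 8.307. By its SD, Ntng1 is not among the varying genes counted above.

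**Figure D3:**
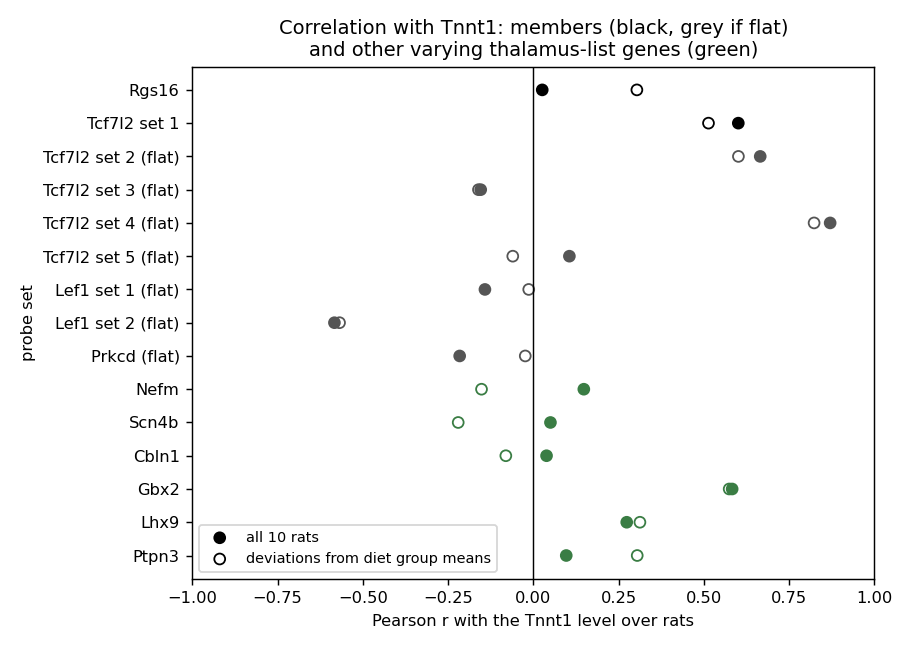
Pearson r with the Tnnt1 level (horizontal axis) for the 9 other member probe sets and 6 further varying thalamic genes, over all 10 rats (filled) and after taking out the diet means (open). Rgs16 sits at 0.03 and the first Tcf7l2 set at 0.60, and the flat sets, shown in grey, spread from -0.58 to 0.87.

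**Figure D4:**
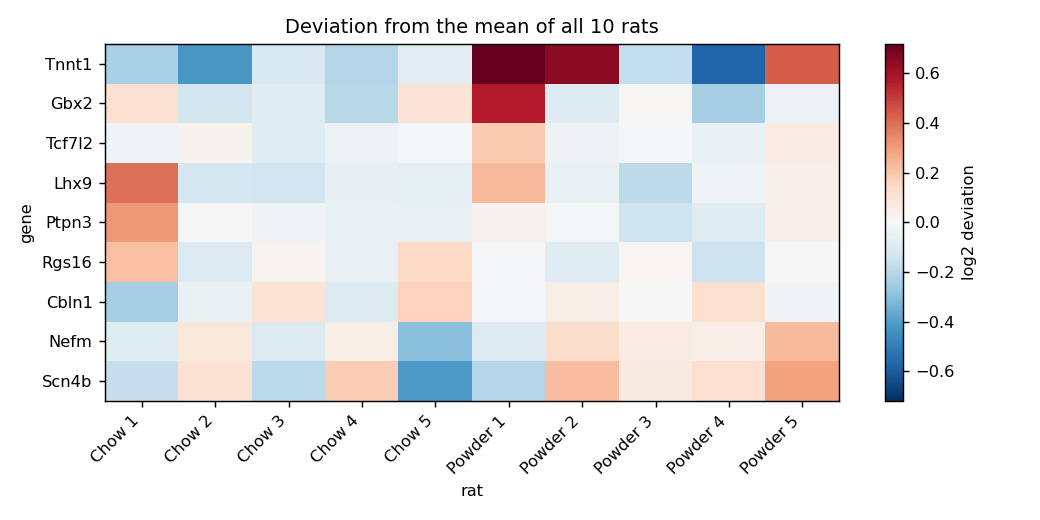
Deviation of each rat from the mean of 10 rats, on the log2 scale (colour), for Tnnt1, Rgs16, the first Tcf7l2 set and 6 further varying thalamic genes. The Powder 1 column is high for Tnnt1, Tcf7l2, Gbx2 and Lhx9, and the Chow 1 column for Lhx9, Ptpn3 and Rgs16 but not Tnnt1.

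Likeness to Tnnt1 in pattern was the Pearson r over 10 rats among the 1014 varying probe sets that name 1 gene (900 genes), of which 18 (1.78%) had r above 0.6 and 103 (10.2%) below -0.6. The 10 most alike were Fam149a, Crh, Gad1, Cnot7, Trh, Pdcd4, Matcap1, Oxt, Qpct and Acyp2, with r of 0.66 to 0.85, rho of 0.48 to 0.90 and 0.43 to 0.78 without Powder 1 and Powder 2. Crh, which encodes corticotropin-releasing hormone, had r = 0.81. It read 7.71 to 7.84 in the 3 rats with high Tnnt1 and 7.10 to 7.62 in the other 7. Crh was picked by its r with Tnnt1, so this separation goes with the selection and is only described. Gad1, a GABA-synthesizing enzyme gene that marks GABAergic neurons, had r = 0.78, Trh, the thyrotropin-releasing hormone precursor, 0.73, and Oxt 0.72. Among the 7 rats below the Tnnt1 gap the 10 genes had r of -0.13 to 0.61. The limma adjusted p was 0.644 to 0.658. Rank products called 6 of the 10 lower in C (0.818% of all probe sets), a direction that follows from likeness to a gene picked on that contrast. The 8 varying genes of the hypothalamic list, which holds Crh, Trh and Oxt, had a median r of 0.25 with Tnnt1, and the others were Avp at 0.33, Hcrt at 0.17, Pmch at 0.15, Npy at -0.05 and Hdc at -0.36.

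The 10 most opposite genes were Spsb1, Itgav, Nutf2, Wrn, Pvalb, Snx15, Icoslg, Phldb1, Akr1c19 and C1ql1, with r of -0.85 to -0.74 and adjusted p of 0.644 to 0.649. Pvalb, the calcium buffer parvalbumin, is a marker of the thalamic reticular nucleus and had r = -0.78. It read 8.04 to 8.29 in the 3 rats with high Tnnt1 and 8.31 to 8.55 in the other 7, and it too was picked by its r. Of these 10 genes, 6 were called higher in C (0.941% of all probe sets), which is likewise set by the choice of Tnnt1.

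Rgs16 had other neighbours, which were looked up after its values were seen. Npy, the neuropeptide Y precursor, had r = 0.96 with Rgs16 (rho 0.88, and 0.83 without Chow 1 and Chow 5), with a limma adjusted p of 0.338. It read 9.98, 9.61, 9.71, 9.58 and 9.91 in Chow 1 to Chow 5 and 9.61 to 9.71 in the P group. Drd1, a dopamine receptor gene strongly transcribed in the striatum, had r = 0.89, and Pmch had r = -0.90. In Chow 1, the highest rat in Rgs16, the 3 varying striatal genes did not move together. Arpp21 read 9.65 against 8.03 to 8.33 in the other rats and Drd1 7.79 against 7.29 to 7.58, whereas Drd2, another dopamine receptor gene, was at its lowest, 7.50 against 7.62 to 7.94. The part of such tissue in the Rgs16 value was not tested. The C minus P difference of Rgs16 was 0.05 without Chow 1.

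**Figure D5:**
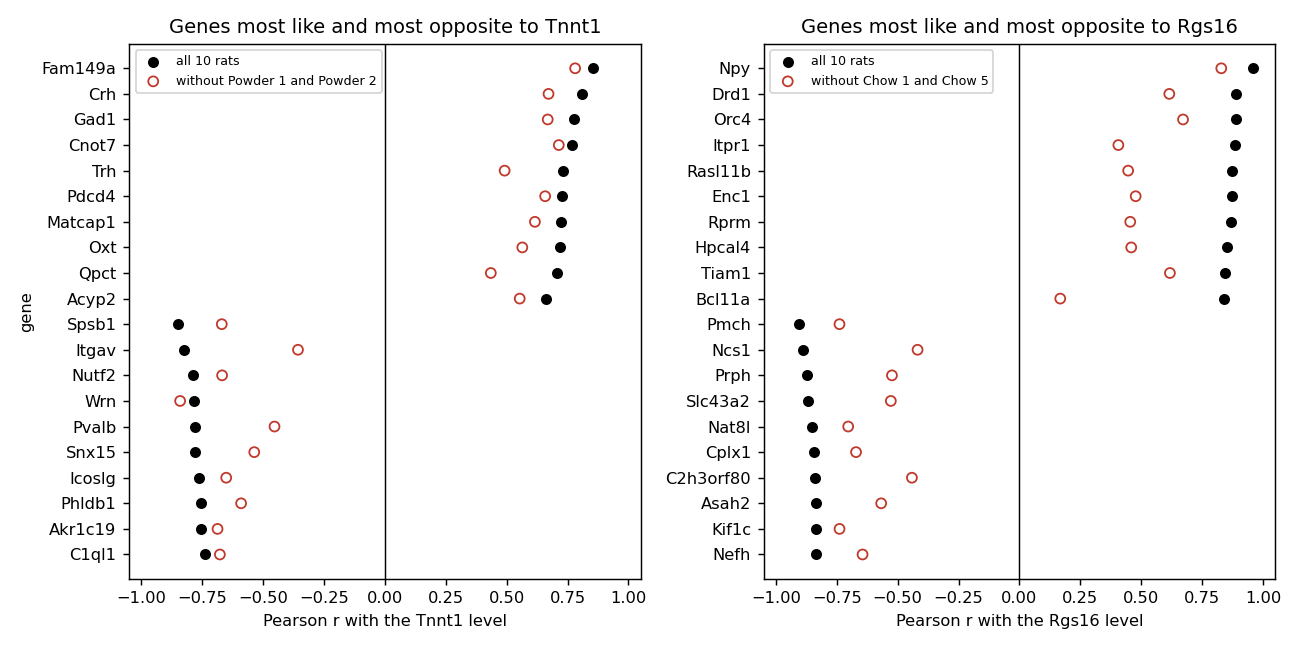
Pearson r of the 10 most alike and 10 most opposite genes with Tnnt1 (left) and with Rgs16 (right), over all 10 rats (black) and without the 2 rats farthest from the median of the anchor gene (red). For Tnnt1, r of the 10 alike genes falls from between 0.66 and 0.85 to between 0.43 and 0.78, and for Rgs16, Npy keeps the highest value at 0.83.

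The other genes of the members' pathways and families are given by how many had flat sets alone, on an array where 92.6% of the probe sets were flat. Of the Wnt nuclear effectors and targets 14 of 21 were on the array, 10 had flat sets alone and 1 varied, Nkd1, an inhibitor of the pathway, with r = -0.54 with Tnnt1, and rank products called 0 of 14. Of the protein kinase C isoforms 8 of 9 were on the array, 7 had flat sets alone and 0 varied or were called. Prkce, at an SD of 0.095, lay just under the 0.1 set for varying. Of the RGS family 16 of 19 were on the array. Rgs16 was the 1 member above 0.1 (SD 0.112), with Rgs4 at 0.097 and Rgs17 at 0.086. It was also the 1 called, where 0.941% of all probe sets were called higher in C. Of the troponin and striated muscle genes 18 of 19 were on the array and 16 had flat sets alone. Tnnt2, cardiac troponin T, was the other muscle gene that varied, at 7.47 in Chow 1, 7.15 in Chow 4, 6.97 in Powder 2 and 7.05 in Powder 3 against 6.01 to 6.47 in the rest, with r = 0.01 with Tnnt1.

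Neighbouring tissues were set beside Tnnt1 in the same way. In the habenula list 8 of 12 genes were on the array and 1 varied, with r = 0.25. In the list for the reticular thalamus and zona incerta 4 of 10 varied, with r of -0.78 (Pvalb) to 0.63, and the homeobox genes Meis2 and Dlx1 of GABAergic neurons were at the upper end with 0.63 each. The 19 varying leptomeningeal genes had r of -0.43 to -0.05 with Tnnt1, and the 11 varying oligodendrocyte genes, all those on the array, had r of -0.67 to -0.50. The mean deviation of the oligodendrocyte genes was lowest in Chow 5 at -0.25 and -0.20 in Powder 1, -0.16 in Powder 2 and 0.00 in Powder 5. Their part in the Tnnt1 level was not tested.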

How the data were processed

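RNA of the hypothalamus of 10 rats was measured on Affymetrix GeneChip rat genome arrays from 100 ng of total RNA. The authors normalized the arrays in R with factor analysis for robust microarray summarization, and the deposited values are log2 levels per probe set. The number of arrays limits the precision. Of 31099 probe sets, 57 were controls and were dropped. Names were assigned through the platform annotation (20826 with 1 gene, 436 with several, 9780 with none). Groups and replicate numbers came from the sample labels.

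Rank products over 25 between-group pairings with 100 permutations gave calls where the estimated false positive share was below 0.05. Each probe set was fitted with limma 3.58.1 in R 4.3.3 on a member's level plus diet, with Benjamini-Hochberg adjustment over all probe sets. Correlations between members used two-sided permutation tests, 100000 for 10 rats and exact for fewer (scipy 1.17.1). Both fits were tested on simulated data. The limma simulation planted slopes well above each probe set's own SD, so it does not show that weaker covariation would be called. The first Tcf7l2 set had an SD below the 0.1 set for varying and was added to the pairs after its values were seen, as were Gbx2, Rgs16 and Tcf7l2 as anchors and the split of rats at the Tnnt1 gap. Named genes were the probe sets of the members, the 10 genes most like and most opposite to Tnnt1 and the varying thalamic genes. The members and all 16 gene lists were chosen with earlier results of these data known. Alternatives were quantile normalization, median centring, a level filter, other thresholds, rank sums, limma for diet, the replicate block and leaving out rats.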

Additional observations from a re-analysis of the deposited data

Results flagged for a closer look

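In the C group, Chow 1 lay apart from the other 4 rats in 2 thalamic genes. Lhx9 was 7.34 in that rat against 6.80 to 6.88, and the gap made up 0.854 of the range. Ptpn3 was 7.50 against 7.13 to 7.19, with a gap of 0.837 of the range. The critical value for 5 samples is 0.71, and of 18 groups of 5 tested in 9 genes, 2 passed it, both through Chow 1. Lhx9 and Ptpn3 count as varying by their SD in these same rats, so no chance rate is set beside this count. Chow 1 was also the rat with the highest mean deviation of the varying cortex and leptomeninges genes (0.65 and 0.80), and the part of those tissues in Lhx9 and Ptpn3 was not tested.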

How the results depend on the processing

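The count of probe sets covarying with Tnnt1 was 0 in the main fit and under all 18 alternatives. The unadjusted limma p was under 0.05 for 54 of 1390 probe sets with an SD above 0.1 and for 1284 of 15521 with the level filter. In the other fits it was so for 271 to 2839 of 31041. Leaving out 1 rat at a time gave r of -0.23 to 0.22 for Tnnt1 with Rgs16, 0.27 to 0.81 for Tnnt1 with Tcf7l2 and -0.15 to 0.11 for Rgs16 with Tcf7l2. Tnnt1 with Tcf7l2 passed the threshold without Chow 2 (r = 0.68, exact permutation p = 0.0331), without Powder 2 (r = 0.81, exact permutation p = 0.012) and under quantile normalization (r = 0.62, permutation p = 0.0459), and was -0.14 in the 7 rats below the Tnnt1 gap. Rgs16 with Tcf7l2 (-0.01) changed sign under quantile normalization (0.016), as a rank correlation (0.079), as deviations from diet means (0.18), without Chow 1 and Chow 5 (0.23), without Chow 1 and Chow 4 (0.087) and in the 7 rats (0.013). The 7 flat member sets numbered 0 under quantile normalization, where they spread by 0.00307 to 0.0165. Under median centring the SDs of these 7 sets were 0.00398 to 0.00426, which also lay above the limit set for flat.

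The labels do not say what the replicate numbers shared by the groups mark. Same-numbered rats had deviations correlated at -0.33 to 0.28, 2 of 5 above 0.1, and 0 of 5 correlated best with their own number. With the replicate block, Tnnt1 with Rgs16 was -0.18 (permutation p = 0.725), Tnnt1 with Tcf7l2 was 0.23 (permutation p = 0.75), Rgs16 with Tcf7l2, which moved most, was -0.80 (permutation p = 0.108), and the covarying count stayed at 0.

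Rank product calls for diet were 292 higher and 254 lower in C. Leaving out 1 rat gave 119 to 355 higher and 120 to 327 lower, the lowest without Chow 1 and without Powder 5, and counts also fell by over 1.5 times without Chow 4 (158) and Powder 1 (175) for higher and without Powder 1 (137), Powder 2 (128) and Powder 4 (157) for lower. Higher calls were 49 without Chow 1 and Chow 4. Rank sums gave 1 and 7, a threshold of 0.01 gave 93 and 99, a filter on the mean level 125 and 97, and limma with or without the replicate block 0 and 0. Tnnt1 was called in 10 of 10 leave-one-out runs (C minus P -0.62 to -0.29) but not by rank sums, and Rgs16 in 5 of 10 (0.05 to 0.13) and not without Chow 1 and Chow 4, by rank sums, at 0.01 or with the filter. The cause was not tested. The deposited table gives no signal over background, so how far the flat sets could show a difference is unknown.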
